A study of Mus musculus with 12 samples.

Results

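The genes described here encode the 4 lecticans (Vcan, Acan, Bcan and Ncan), 3 link proteins (Hapln1, Hapln3 and Hapln4), tenascin-R (Tnr) and the receptor phosphatase Ptprz1. The 9 genes were found by their mouse symbols among 54146 genes counted, and all 9 passed the filter on low counts that left 18628 genes for testing. Each library was made from the whole retina of 1 mouse, with 3 mice in each of 4 groups: P30 control mice (mice 1 to 3), and cKO mice at P32 (mice 4 to 6), P34 (mice 7 to 9) and P38 (mice 10 to 12). The cKO mice carried floxed Otx2 alleles and Crx-CreERT2, a tamoxifen-dependent Cre driven by the photoreceptor (PR) gene Crx, and were killed 2, 4 and 8 d after 1 tamoxifen injection. Otx2, a homeobox transcription factor of PRs, bipolar cells and the retinal pigmented epithelium (RPE), was thus targeted in PRs, and recombination removes 1 of its coding exons. The labels give the P30 mice as controls with no days after induction and do not give their alleles. All lines were kept on a 129/SV background. Age, tamoxifen and deletion changed together between P30 and the later groups and cannot be told apart.

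Lecticans are chondroitin sulfate proteoglycans that bind the polysaccharide hyaluronan through their N-terminal domain, and link proteins lock that bond. Tenascin-R joins the other ends of the lecticans, so that the parts form the lattice known as the perineuronal net around some neurons and the looser matrix between other cells. Ptprz1 is a receptor-type phosphatase of glia with chondroitin sulfate chains of its own. Phosphacan, a soluble form of its ectodomain, is a further proteoglycan of this matrix. In the eye, versican is also known from the vitreous and from the matrix around PRs, and cortical neurons with such nets are known to take up OTX2 protein.

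Values are CPM, a gene's counts relative to all counts of its library after TMM scaling by edgeR. A gene was called where edgeR's quasi-likelihood test gave an adjusted p (Benjamini-Hochberg) no larger than 0.05 and the log2 fold change was 0.5 or more in size. Libraries held 29701483 to 60145034 counts on genes, so that 3 counts, the floor for a count of 0, came to 0.0473 to 0.102 CPM. Otx2 itself, counted over all exons, had 293, 328 and 315 CPM in the P30 mice. In the 9 cKO mice it had 322, 340.1 and 371 CPM (P32), 328, 331 and 377 CPM (P34), then 377, 307 and 372 CPM (P38), and its log2 fold changes of 0.14, 0.15 and 0.17 at these ages (SE 0.11 each) were not called. Counts over all exons cannot tell deleted alleles from intact ones. Markers of rods, bipolar, amacrine and ganglion cells and Müller glia were present in all libraries, and lens markers were present too, at a summed level of 197 to 31840 CPM over 6 genes.

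Vcan fell at P34 and was the only one of the 9 genes that was called in any comparison. Vcan (ENSMUSG00000021614) encodes versican, the most widely distributed lectican, and lies on the minus strand of chromosome 13 from 89655312 to 89742509 (GRCm38). Its level was 17.9, 22.4 and 26.7 CPM in the controls (mice 1, 2 and 3). It was 12.2, 18.2 and 12.0 CPM in P32 mice 4, 5 and 6. The 3 P34 mice (7, 8 and 9) had 2.93, 2.91 and 2.33 CPM, from 106, 119 and 69 counts. At P38, mice 10, 11 and 12 had 16.9, 22.1 and 15.3 CPM. All 3 P34 values thus lay below all 9 other values, a pattern found in 326 of the 18628 genes tested (1.75%), while the P32 and P38 values overlapped those at P30, with 2 of 3 mice at each of these ages below the lowest P30 mouse.

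The mean Vcan level was 22.3 ± 4.37 CPM (SD, n = 3) at P30 and 2.72 ± 0.339 CPM (SD, n = 3) at P34, which was 8.19-fold lower. The log2 fold change of Vcan at P34 against P30 was -3.03 (SE 0.23, 95% interval -3.52 to -2.53, adjusted p = 0.000171 by edgeR). In this comparison 123 genes (0.66% of those tested) were lower. Against P32, the P34 level was lower by a log2 fold change of -2.37 (SE 0.22, adjusted p = 0.000977 by edgeR), with 45 genes (0.242%) lower in all. From P34 to P38 Vcan rose, by a log2 fold change of 2.73 (SE 0.23, adjusted p = 0.000786 by edgeR) and a 6.65-fold higher mean, with 37 genes (0.199%) higher in all. A test for any difference among the 4 groups called Vcan with an adjusted p of 0.00169 by edgeR, as it did 64 genes (0.344%). The 3 comparisons with P34 share its libraries, so they are not independent.

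At P32 the log2 fold change of Vcan against P30 was -0.65 (SE 0.21, 95% interval -1.10 to -0.20, unadjusted p = 0.00809, adjusted p = 0.698 by edgeR), and at P38 it was -0.30 (SE 0.20, 95% interval -0.74 to 0.15, adjusted p = 0.847 by edgeR). At P32, 0 of the 9 genes were called by edgeR and 0 by DESeq2, and 1, Vcan, was lower at an unadjusted p of at most 0.05; over all genes these rules called 0%, 0.134% and 1.77%. At P38, 0 of the 9 genes were called by edgeR, 0 by DESeq2 and 0 at an unadjusted p, against 0%, 0.242% and 3.46% of all genes. Over the mean of the 3 cKO ages, Vcan was lower by a log2 fold change of -1.33 (SE 0.16, adjusted p = 0.0105 by edgeR), as were 67 genes (0.36%). That last call was lost without P30 mouse 2 (adjusted p = 0.0641), without P30 mouse 3 (adjusted p = 0.0719) and without mice 4, 7 and 10 (adjusted p = 0.0754), the mouse of each cKO age with the smallest share of reads outside genes, where 0, 2 and 0 genes were called in all.

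**Figure D1:**
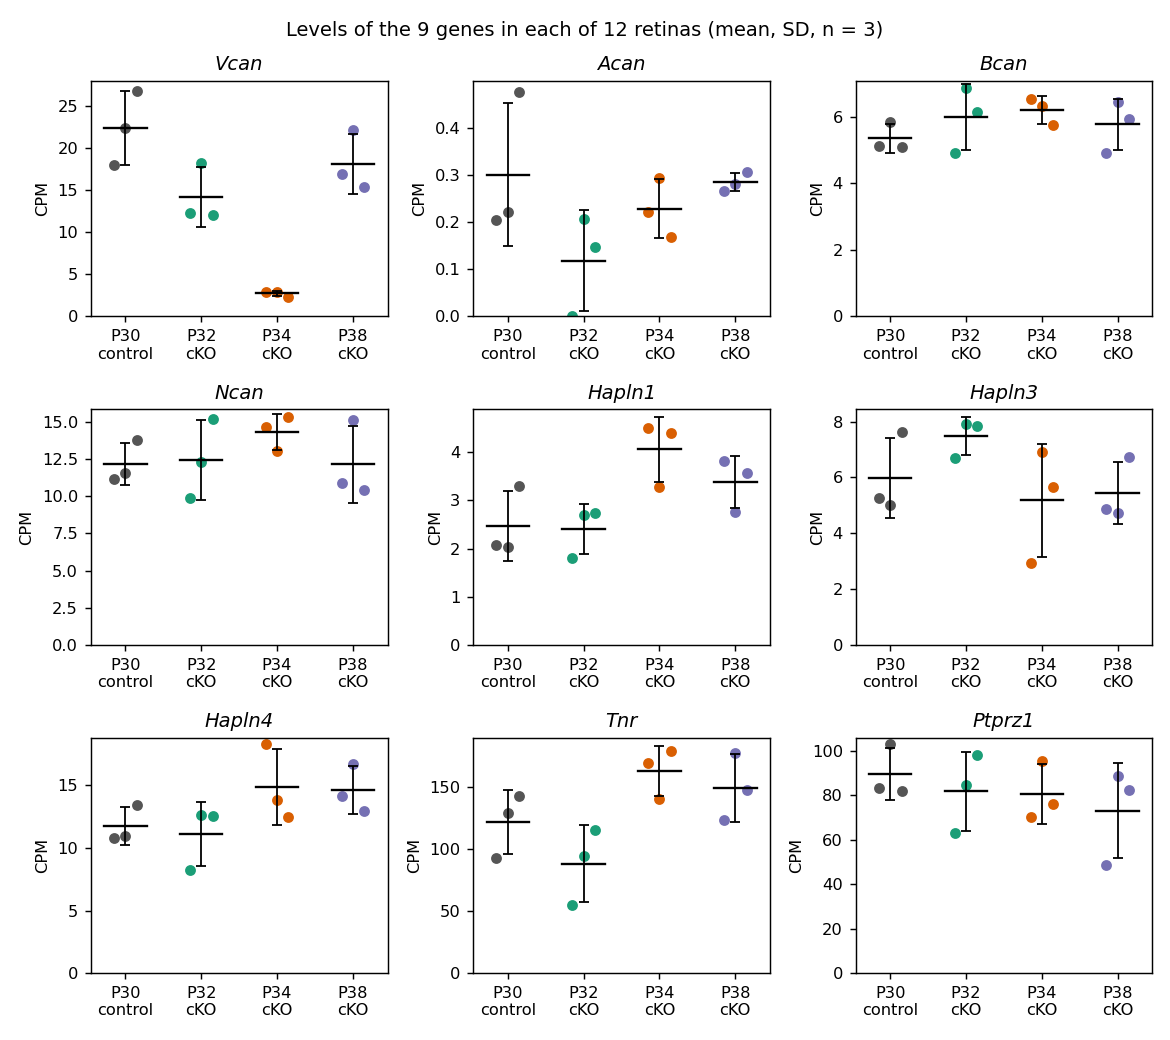
CPM (vertical axes, from 0) of each of the 9 genes in the 12 retinas by group, with 1 point per mouse, a line at the mean and bars of 1 SD (n = 3). Vcan sits between 2.33 and 2.93 CPM in the 3 P34 mice and between 12.0 and 26.7 CPM in the other 9, and in the other 8 genes the values at each cKO age overlap those at P30.

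Vcan and the markers of the ciliary epithelium, the tissue next to the edge of the retina, were both lowest in the 3 P34 mice. The summed level of 4 such genes (Optc, Otx1, Wfdc1 and Msx1) was 88.8 to 113 CPM in controls, 44.4 to 126 CPM in the P32 mice, 5.39 to 8.11 CPM in those at P34 and 42.7 to 85.6 CPM in those at P38. Vcan and this sum had the same order of mice within the P32 and within the P38 group. In controls they did not, as mouse 1 had the highest sum (113 CPM) and the lowest Vcan (17.9 CPM). At P34 against P30 all 4 ciliary genes had negative log2 fold changes, with a median of -3.87, and 2 of the 4 were called lower, Optc with -4.84 and Otx1 with -3.52. None of the 4 was at 0 in any library. With a ciliary score, the mean log2 CPM of these genes, as a covariate, the log2 fold change of Vcan at P34 was -2.33 (SE 0.45, adjusted p = 0.311 by edgeR), and Vcan was not called in any comparison. In that fit edgeR called 0 of the 18628 genes at P34 against P30, where 1710 had an unadjusted p under 0.05, and 0 in each other comparison, where 1097 to 4660 did. This score was -0.69 to -0.10 in the P34 mice and 1.35 to 3.16 in the other 9, so that it largely separated the same libraries as the P34 group. Whether ciliary tissue in the dissected samples had a part in the Vcan values was not tested. In whole tissue, fewer cells of a type and less RNA per cell cannot be told apart.

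Of the markers of other tissue around the retina, 2 of 7 RPE, 4 of 4 tested smooth muscle, 1 of 5 fibroblast and 0 of 6 lens markers were called lower at P34 by edgeR, beside 0.66% of all genes tested. RPE markers summed to 74.1, 437 and 392 CPM in mice 1, 2 and 3 (P30), and to 40.9 to 57.2 CPM at P34, a level the P32 mice (32.2 to 86.8 CPM) and P38 mice (33.2 to 95.9 CPM) shared. In controls the RPE sum was mostly that of the pigment genes Pmel, Tyrp1, Tyr and Mlana. Pmel had a mean of 161 CPM at P30 and 8.73 CPM at P34 (not called, adjusted p = 0.0546 by edgeR), and Tyrp1, called lower, 80.1 and 6.02 CPM. The visual cycle genes of the list had positive log2 fold changes and were not called, with means at P30 and P34 of 13.4 and 16.8 CPM for Rpe65 and 8.60 and 10.4 CPM for Lrat. Smooth muscle markers summed to 28.9 to 197 CPM in controls, 10.4 to 47.4 CPM in the P32 mice, 9.11 to 13.1 CPM in those at P34 and 14.8 to 22.2 CPM in those at P38. Fibroblast markers summed to 31.7 to 63.4 CPM in controls, 21.5 to 40.3 CPM in the P32 mice, 7.54 to 28.8 CPM in those at P34 and 28.1 to 35.1 CPM in those at P38. Lens markers summed to 374 to 27176 CPM in controls, 510.1 to 31840 CPM in the P32 mice, 197 to 523 CPM in those at P34 and 4223 to 10647 CPM in those at P38. Müller glia markers summed to 4126 to 4409 CPM at P30 and 4032 to 4645 CPM at P34. The part of these tissues in the Vcan values was not tested.

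**Figure D2:**
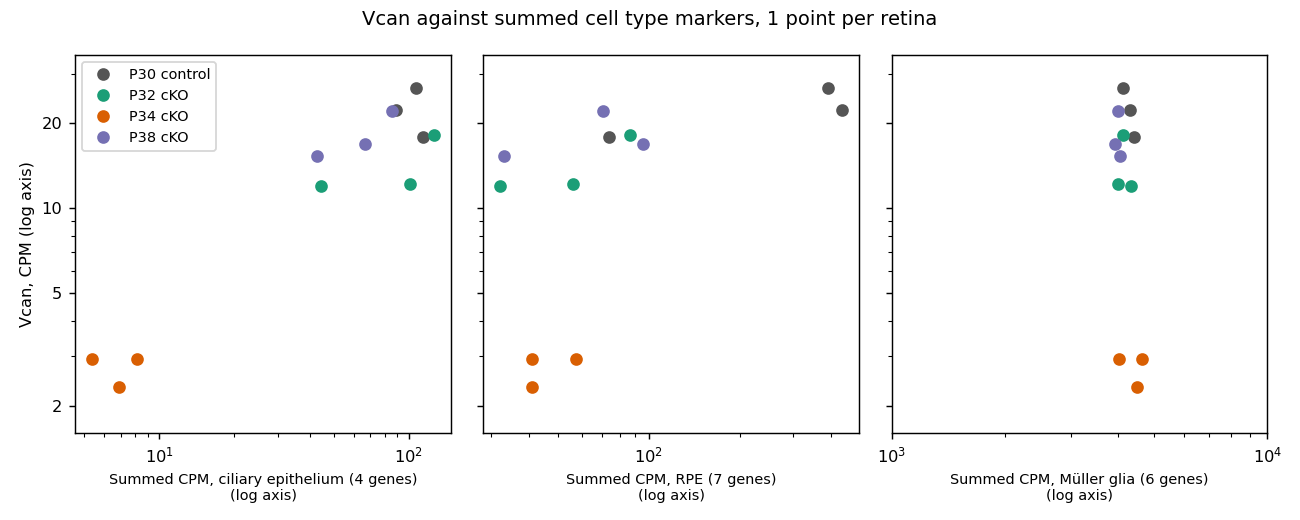
Vcan in CPM (vertical axis, log) against the summed CPM (horizontal axes, log) of markers of the ciliary epithelium, the RPE and Müller glia, with 1 point per retina. The P34 retinas are alone at the low end of both Vcan (2.33 to 2.93 CPM) and ciliary markers (5.39 to 8.11 CPM). Their RPE sums (40.9 to 57.2 CPM) lie within those of the P32 and P38 retinas, and their Müller glia sums are 4032 to 4645 CPM, with mice 7 and 9 above all other retinas.

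Sex was not balanced between the groups. By Xist and Y-linked genes, the 3 P30 mice, mice 5, 6, 9 and 12 were female and the others male. Vcan was 2.33 CPM in the female P34 mouse, and with sex as a covariate the log2 fold change at P34 was -3.11 (SE 0.27, adjusted p = 0.000616 by edgeR).

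The 250 bases before the RefSeq start of Vcan are shown because it is the gene that changed, and those of Tnr because it had the highest level per length. Both are from RefSeq (GRCm38.p6), 5′ to 3′ on the gene's own strand, at chr13:89742513-89742762 (minus strand) and chr1:159523519-159523768 (plus strand), and capitals mark the CpG pairs.
Vcan: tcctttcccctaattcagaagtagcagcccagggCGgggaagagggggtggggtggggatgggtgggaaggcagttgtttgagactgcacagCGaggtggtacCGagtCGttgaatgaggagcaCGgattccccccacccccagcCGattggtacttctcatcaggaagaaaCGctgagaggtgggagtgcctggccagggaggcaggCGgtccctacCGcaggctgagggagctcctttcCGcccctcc
Tnr: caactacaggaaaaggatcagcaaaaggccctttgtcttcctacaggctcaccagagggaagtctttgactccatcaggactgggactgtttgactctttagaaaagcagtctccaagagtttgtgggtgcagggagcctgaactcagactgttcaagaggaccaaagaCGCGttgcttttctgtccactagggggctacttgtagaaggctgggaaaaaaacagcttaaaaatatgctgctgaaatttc
The Vcan stretch holds 10 CpG pairs and 62.4% G and C, and the Tnr stretch 2 pairs and 46.8%, where the median over 32851 promoter windows of this length was 6 pairs. TAATCC, the core motif of OTX and CRX homeodomains, was searched on both strands and is in 0 of the 8 windows searched (those of all 9 genes but Hapln4). It is in 6.25% of all 32851 windows. A window without these letters says nothing of binding elsewhere.

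The other 3 lecticans were not called in any comparison. Acan (ENSMUSG00000030607, chromosome 7, 79053483 to 79115099, plus strand) encodes aggrecan, the lectican of cartilage and of dense perineuronal nets, and was close to the limit of detection. It had 13, 11 and 16 counts (0.205, 0.222 and 0.475 CPM) in mice 1, 2 and 3 (P30), 0, 8 and 6 counts in P32 mice, 8, 12 and 5 in P34 mice and 11, 12 and 9 in P38 mice. The 0 in P32 mouse 4 allows up to 0.0899 CPM. Its log2 fold change against P30 came to -1.23 (95% interval -2.66 to 0.20) for P32, -0.33 (-1.66 to 1.01) for P34 and -0.03 (-1.34 to 1.28) for P38, so that changes of over 2-fold in either direction were within the interval at P38.

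Bcan (ENSMUSG00000004892, chromosome 3, 87987531 to 88000230, minus strand) encodes brevican, a lectican of the adult nervous system. It had 5.12, 5.85 and 5.08 CPM in mice 1, 2 and 3 (P30), 4.92, 6.87 and 6.16 CPM in the P32 mice, 6.54, 6.32 and 5.75 CPM in those at P34 and 4.92, 6.45 and 5.94 CPM in those at P38. The groups overlapped at every age, and the log2 fold change was 0.21 (95% interval -0.15 to 0.58) at P34. Ncan (ENSMUSG00000002341, chromosome 8, 70093085 to 70120873, minus strand) encodes neurocan, a lectican made mostly by neural tissue. Its level was 11.2, 11.5 and 13.8 CPM in controls, 9.86, 12.3 and 15.2 CPM in the P32 mice, 14.7, 13.0 and 15.4 CPM in those at P34 and 10.9, 15.1 and 10.5 CPM in those at P38. Here too the groups overlapped, with a log2 fold change of 0.24 (95% interval -0.16 to 0.64) at P34. Brevican and neurocan therefore had intervals that held no fall of the size seen for Vcan.

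Among the link proteins, Hapln1 (ENSMUSG00000021613, chromosome 13, 89539796 to 89611652, plus strand) had the largest difference. Hapln1 encodes the link protein known from cartilage and from perineuronal nets. It had 2.06, 2.04 and 3.30 CPM in mice 1, 2 and 3 (P30), and 1.80, 2.69 and 2.73 CPM in the P32 mice. At P34 it had 4.50, 3.28 and 4.40 CPM, and at P38 3.81, 2.77 and 3.56 CPM. Each cKO age overlapped P30, at P34 by its lowest mouse, just below the highest P30 mouse. All P34 and P38 values were above all P32 values, a separation that was not counted over all genes tested. The log2 fold change at P34 was 0.72 (SE 0.25, 95% interval 0.17 to 1.28), with an unadjusted p of 0.0148 and an adjusted p of 0.339 by edgeR. It was thus 1 of 159 genes (0.854%) that were higher at an unadjusted p and was not called.

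Hapln3 (ENSMUSG00000030606, chromosome 7, 79115102 to 79131018, minus strand) encodes a link protein found outside the nervous system as well. Its level was 5.28, 5.02 and 7.63 CPM in controls, 6.69, 7.93 and 7.83 CPM in the P32 mice, 2.95, 6.93 and 5.65 CPM in those at P34 and 4.87, 4.71 and 6.72 CPM in those at P38. P34 mouse 7 was the lowest of the 12, and the log2 fold change at P34 was -0.20 (95% interval -0.82 to 0.41). Hapln4 (ENSMUSG00000007594, chromosome 8, 70083457 to 70090862, plus strand) encodes a link protein of the nervous system, known from nets of the brainstem and cerebellum. It had 10.8, 10.96 and 13.4 CPM in controls, 8.18, 12.6 and 12.5 CPM in the P32 mice, 18.2, 13.8 and 12.4 CPM in those at P34 and 14.1, 16.7 and 12.9 CPM in those at P38. In 2 of 3 mice at P34 and at P38 Hapln4 was above the highest P30 mouse, with a log2 fold change of 0.34 (95% interval -0.09 to 0.77) at P34 that was not called.

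Each lectican gene of the mouse has a link protein gene as its neighbour, with no other coding gene between them in the GENCODE M21 annotation. The gap is 43.7 kb between Vcan and Hapln1, 2 bases between Acan and Hapln3, 2.22 kb between Ncan and Hapln4 and 21.5 kb between Bcan and Hapln2. At P34 against P30, Vcan had a log2 fold change of -3.03 and Hapln1 one of 0.72. For Acan and Hapln3 the values were -0.33 and -0.20, and for Ncan and Hapln4 0.24 and 0.34. Hapln2, the link protein of nodes of Ranvier, was at 0 to 0.182 CPM in the 12 libraries and did not pass the filter. In the 3 pairs tested, Vcan was the 1 gene called at P34 against P30, where 0.66% of all genes tested were called lower. The signs of Acan and Hapln3 turned when 1 mouse was left out.

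Tnr (ENSMUSG00000015829, chromosome 1, 159523769 to 159931729, plus strand) encodes tenascin-R, which links lecticans to each other. It had 92.99, 130 and 143 CPM in the 3 control mice, and 54.8, 94.9 and 116 CPM in P32 mice 4, 5 and 6. It had 170, 140 and 179 CPM in P34 mice 7, 8 and 9, and 123, 178 and 148 CPM in P38 mice 10, 11 and 12. All P34 and P38 values were thus above all P32 values, and both ages overlapped P30. How many of all genes tested had this separation was not counted. At an unadjusted p, 5.49% of them were higher at P34 than at P32, and 5.68% were higher at P38 than at P32. Against P30, the log2 fold change of Tnr came to -0.46 (95% interval -0.997 to 0.08) for P32, 0.42 (-0.11 to 0.96) for P34 and 0.30 (-0.24 to 0.83) for P38. With the ciliary score as a covariate, the P34 value turned negative.

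Between cKO ages, the log2 fold change of P34 against P32 was 0.88 for Tnr (SE 0.25, unadjusted p = 0.00400, adjusted p = 0.0949 by edgeR) and 0.75 for Hapln1 (SE 0.26, unadjusted p = 0.0126, adjusted p = 0.111 by edgeR). Neither was called, and at an unadjusted p 1023 genes (5.49%) were higher. DESeq2 called both genes (adjusted p = 0.0132 for Tnr and 0.0459 for Hapln1), as it called 574 genes (3.08%) higher. From P32 to P38, 0 of the 9 genes were called by edgeR, as 0% of all genes. For Tnr the log2 fold change there was 0.76 (SE 0.25, unadjusted p = 0.0100, adjusted p = 0.130 by edgeR). At an unadjusted p Tnr was 1 of 1059 genes (5.68%) that were higher, and by DESeq2 it was called (adjusted p = 0.0392) with 511 genes (2.74%) higher. Without P32 mouse 6, Tnr was called by edgeR in both comparisons (adjusted p = 0.0189 and 0.0326), with 1416 (7.43%) and 1242 (6.52%) of 19062 genes called higher in all. Of the 9 genes, 3 (Vcan, Tnr and Hapln1) passed at an unadjusted p in either direction at P34 against P32, beside 14.4% of all genes, and DESeq2 called the same 3, beside 7.55%. For any difference among the 4 groups, these 3 passed at an unadjusted p, beside 17.2% of all genes, and DESeq2 called Vcan and Tnr, beside 7.31%.

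Marker sums of ganglion cells, PRs and astrocytes had the same split between cKO ages as Tnr. Ganglion cell markers summed to 749 to 1091 CPM in controls, 807 to 972 CPM in the P32 mice, 1033 to 1458 CPM in those at P34 and 1082 to 1332 CPM in those at P38. PR markers summed to 60475 to 66579 CPM in controls, 55109 to 59950 CPM in the P32 mice, 68543 to 91596 CPM in those at P34 and 66947 to 101130 CPM in those at P38. Astrocyte markers (Gfap, Pax2 and S100b) summed to 30.8 to 59.5 CPM in controls, 25.6 to 27.8 CPM in the P32 mice, 32 to 62.6 CPM in those at P34 and 33.4 to 61.6 CPM in those at P38. Gfap made up most of this sum and had the split itself, with 15.1 to 19.1 CPM at P32, 22.3 to 47.3 CPM at P34 and 23.4 to 49.0 CPM at P38. S100b and Pax2 overlapped between these ages. The paper reports a rise of GFAP in Müller cells of cKO mice at P40 and P50, so this sum is not particular to astrocytes. In all 3 lists every P34 and P38 sum was above every P32 sum, and their part in the Tnr and Hapln1 values was not tested.

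Ptprz1 (ENSMUSG00000068748, chromosome 6, 22875502 to 23052916, plus strand) had 83.1, 103 and 82.1 CPM in controls, 62.8, 84.6 and 97.9 CPM in the P32 mice, 70.1, 95.5 and 76.0 CPM in those at P34 and 48.6, 88.5 and 82.1 CPM in those at P38. In each cKO group its lowest mouse was the one with the smallest share of reads outside genes, mice 4, 7 and 10 with 8.67%, 6.53% and 7.53% against 9.95 to 13.7% in the other 9. Its log2 fold change came to -0.13 (95% interval -0.61 to 0.36) for P32, -0.15 (-0.64 to 0.34) for P34 and -0.29 (-0.78 to 0.19) for P38, and without these 3 mice it was -0.07 (SE 0.13) at P34. The part of that library property in the Ptprz1 values was not tested.

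**Figure D3:**
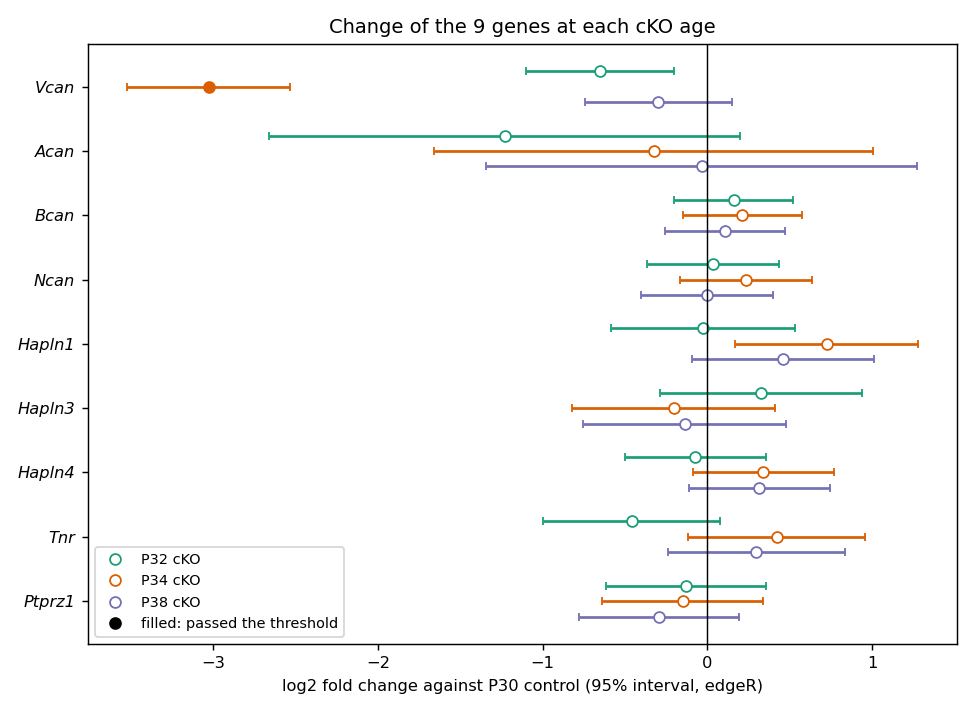
Log2 fold change against P30 control (horizontal axis) of the 9 genes at P32, P34 and P38, with 95% intervals from edgeR and filled points for genes called. Only Vcan at P34 is filled, at -3.03, and the widest intervals are those of Acan.

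Over all 9 genes, the median log2 fold change against P30 was -0.07 for P32, 0.21 for P34 and -0.0016 for P38, beside -0.0088, -0.0013 and -0.0091 over all genes tested. At P34, 5 of the 9 had positive values and 4 negative ones. Counted by role, 1 of 4 lecticans, 0 of 3 link proteins, and neither Tnr nor Ptprz1 was called at this age by edgeR. Of all genes tested, 0.66% were called lower, so that with so few genes per role the counts do not tell the roles apart.

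Levels of different genes were compared as CPM per kb of annotated exons, since longer transcripts gather more reads. At P30 the order was Tnr with 9.47 ± 2.00, Ptprz1 with 6.28 ± 0.825, Hapln4 with 2.99 ± 0.376, Hapln3 with 1.70 ± 0.409, Ncan with 1.69 ± 0.197, Vcan with 1.54 ± 0.302, Bcan with 1.32 ± 0.107, Hapln1 with 0.418 ± 0.122 and Acan with 0.0403 ± 0.0203 CPM per kb (SD, n = 3). Tnr and Ptprz1 overlapped in their P30 values, as did each neighbour in the run Hapln3, Ncan, Vcan and Bcan, whereas the steps from Ptprz1 to Hapln4, from Hapln4 to Hapln3, from Bcan to Hapln1 and from Hapln1 to Acan were larger than the spread. At P34, Vcan had 0.161 to 0.202 CPM per kb, below every Hapln1 value (0.305 to 0.762 CPM per kb over all 12 libraries). The length of 14462 bases taken for Vcan counts all annotated exons, including those that only some isoforms use, so its level per length is a low estimate, and isoforms were not analysed here.

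**Figure D4:**
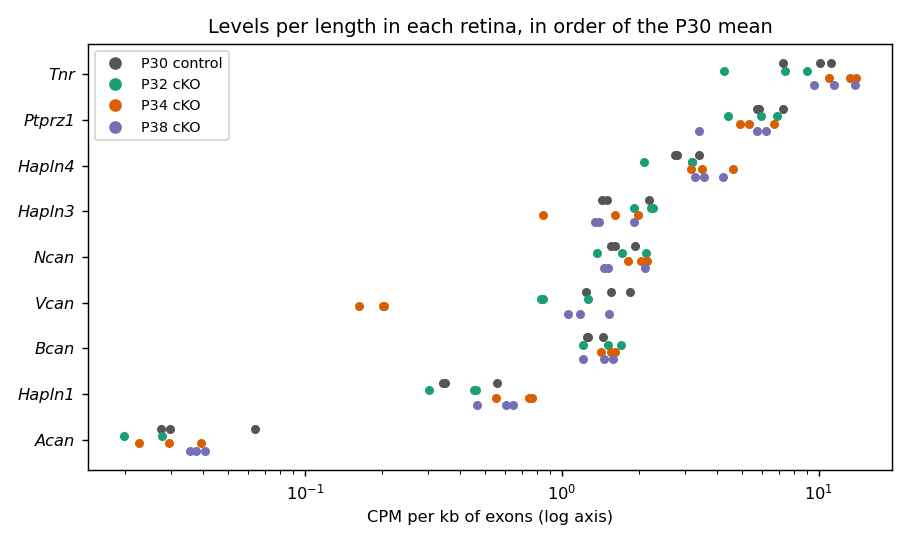
CPM per kb of exons (horizontal axis, log) of the 9 genes in each retina, ordered by the P30 mean, with 1 point per mouse and groups by color. Tnr and Ptprz1 are highest and Acan lowest (its 0 in P32 mouse 4 is not drawn), and the P34 points of Vcan (0.161 to 0.202) stand apart from its other points.

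The genes whose log2 CPM followed each of the 9 most closely over the 12 libraries differed between members, as a description that includes shared depth and tissue content. Vcan was most like Ltbp2, a latent TGF-β binding protein of elastic fibers (Pearson's r = 0.984 over 12 libraries), and the desmosomal cadherins Dsg2 (r = 0.984) and Dsg1a (r = 0.983). Ltbp2 had a mean level of 25.6 CPM at P30 and 1.40 CPM at P34, and Dsg2 one of 1.85 and 0.0889 CPM. Tnr was most like the glutamine transporter gene Slc38a1 (r = 0.991), Lmtk2 (r = 0.985) and Pip4k2b (r = 0.985). Hapln4 was most like the neuronal kinase gene Camk2a (r = 0.962), Mgrn1 (r = 0.960) and Bcl11b (r = 0.955), and Hapln1 like Vti1a (r = 0.963), Odr4 (r = 0.946) and Gne (r = 0.945). For Ptprz1 the genes were Il1r1 (r = 0.969), Lgr5 (r = 0.965) and Parp8 (r = 0.953). For Bcan they were Stac2 (r = 0.912), Sidt1 (r = 0.906) and Meaf6 (r = 0.897), and for Ncan Sema4d (r = 0.901), Irs1 (r = 0.890) and Scrt2 (r = 0.888). For Hapln3 they were Gm16029 (r = 0.938), Myo5c (r = 0.930) and Ccna2 (r = 0.929), and for Acan Gm5297 (r = 0.942) and Mybbp1a (r = 0.936). Among the 9 genes themselves, the closest pair was Tnr and Hapln4 (r = 0.816), and Vcan and Hapln1 had r = -0.565.

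Related genes of the same matrix were taken as lists, 49 genes of which 46 were tested (Hapln2, Has2 and Tnn did not pass the filter). At P34 against P30, 3 of the 46 were called lower, beside 0.66% of all genes tested, and 0 higher. All 3 come from the list of other tenascins and matrix proteins that bind lecticans. Like the other lists, it was chosen with earlier results of these data known. Its counts and median are thus a description and not a test of the list. Fbln1, encoding fibulin-1, went from 80.2 ± 1.505 CPM (SD, n = 3) at P30 to 2.62 ± 1.06 CPM at P34, a log2 fold change of -4.94 (SE 0.40, adjusted p = 0.000265 by edgeR). Fbn1, encoding fibrillin-1 of microfibrils, went from 63.7 ± 7.58 to 15.6 ± 2.00 CPM, with -2.03 (SE 0.23, adjusted p = 0.00158 by edgeR). Fbln2, encoding fibulin-2, went from 4.12 ± 1.10 to 1.08 ± 0.147 CPM, with -1.93 (SE 0.29, adjusted p = 0.00982 by edgeR). Like Vcan, Fbln1 and Fbn1 were lower at P34 than at P32 (-4.66 and -1.41) and higher at P38 than at P34 (4.08 and 1.65), in comparisons that share the P34 libraries. The other 2 tested genes of this list were Tnxb, with -1.09 (adjusted p = 0.332 by edgeR), and Tnc, with 0.36 (adjusted p = 0.368 by edgeR), and the median of the list was -1.93 where that of all genes was -0.0013. The ciliary marker sums were lowest in the same P34 libraries, and their part in these values was not tested.

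In the other lists, 0 of 41 tested genes were called at P34 by edgeR, 4 were lower and 1 was higher at an unadjusted p (beside 5.42% and 0.854% of all genes), and DESeq2 called 3 of them lower (Timp3, Mdk and Adamts9), where it called 353 genes (1.89%) lower in all. Of 8 genes for proteases that cleave lecticans and an inhibitor of these, 7 had negative values, with a median of -0.34, among them Adamts4 with -2.07 (adjusted p = 0.380), Adamts9 with -0.94 (adjusted p = 0.165) and the inhibitor Timp3 with -0.89 (adjusted p = 0.0771). Of 12 genes for hyaluronan synthesis, breakdown and binding the median was -0.11, and the largest values were -1.07 for Hmmr, -0.82 for Cd44 and -0.72 for Tnfaip6. Of 9 ligands and adhesion partners of Ptprz1 and of the brain lecticans, 7 had positive values, with a median of 0.24. The largest were -1.59 for Mdk (midkine, adjusted p = 0.0934 by edgeR), 0.59 for L1cam and 0.48 for Cntn2. The 4 receptors for chondroitin sulfate proteoglycans had values from -0.06 for Ptprf to 0.05 for Rtn4r. Of the other chondroitin sulfate proteoglycans, Impg1 and Impg2 of the matrix around PRs had 0.49 and 0.31, and Cspg5 had -0.17. The 4 other perineuronal net genes were all positive, with 0.38 for Nptxr, 0.29 for Nptx1 and 0.17 for Nptx2. At P32 and at P38 against P30, 0 of the 46 genes were called by edgeR in either direction, and 0 by DESeq2, with 3 lower at P32 and 5 lower at P38 at an unadjusted p (beside 1.77% and 2.66% of all genes) and 0 higher at either age (beside 1.13% and 0.805%).

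**Figure D5:**
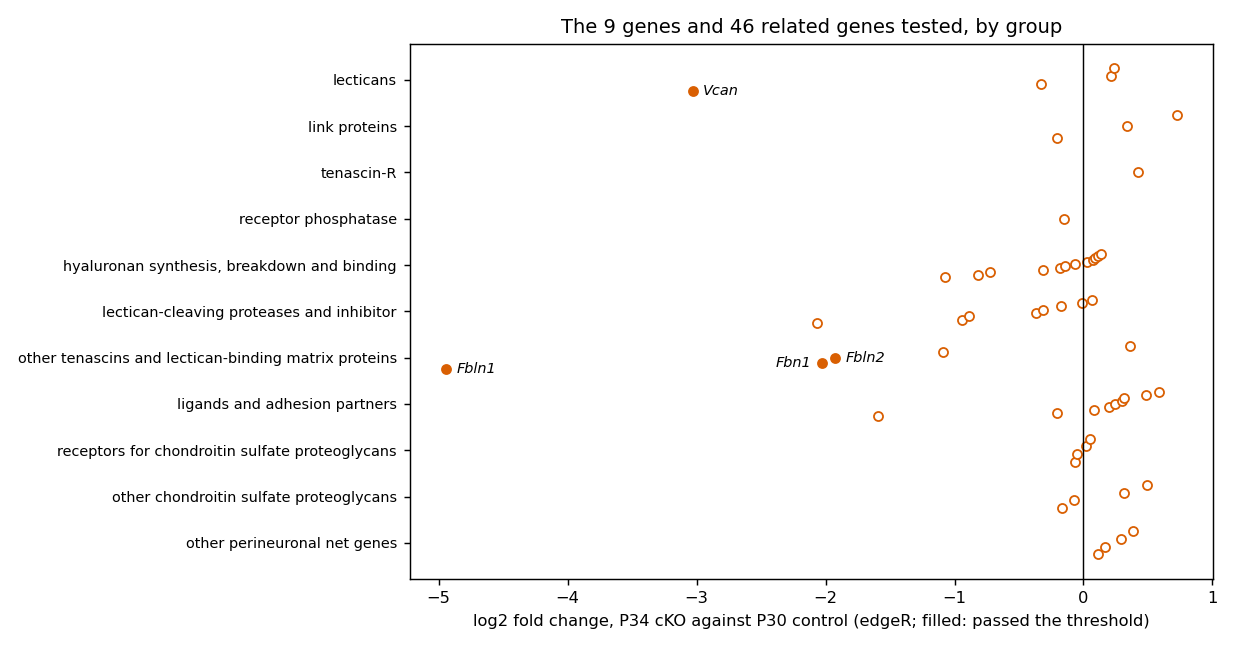
Log2 fold change at P34 cKO against P30 control (horizontal axis) of the 9 genes and of 46 related genes, 1 point per gene in rows by group, filled where called by edgeR. The 4 filled points are Vcan (-3.03), Fbln1 (-4.94), Fbn1 (-2.03) and Fbln2 (-1.93), all lower, and most others lie between -1 and 1.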

How the data were processed

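Stranded poly(A) libraries, 1 per mouse, were sequenced by the authors as single reads of 50 bp. Reads were aligned with STAR 2.5.3a (build mm10), and HTSeq 0.6.1p1 then counted them on Ensembl 93 genes in its union mode. The deposited values are raw counts per gene and mouse, without normalization. The strand option of the counting is not given in the sources used here, and reads with more than 1 position or on 2 genes were not counted. Genes within or opposite Vcan had 184 counts over the 12 libraries, and those at Tnr 48.

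From these counts, edgeR 4.0.16 in R 4.3.3 gave TMM-scaled CPM and a filter on low counts over the 4 groups, and 1 quasi-likelihood model of the 12 mice had a mean for each group. Adjustment of p-values (Benjamini-Hochberg) covered the 18628 genes tested. Standard errors (SE) were taken from the log2 fold change and the F statistic (the ratio of the former to the root of the latter), and 95% intervals use the fit's degrees of freedom. Floors cover counting error only. Each mouse is 1 replicate. Sums of reads with no gene, no unique position or 2 genes (rows of the files that name no gene) stayed out of library sizes, and 6.53 to 13.7% of reads fell outside genes and 23.7 to 32.2% had no unique position. Alternatives used DESeq2 1.42.0, its size factors, other filters, a robust fit, only the groups compared, sex or a ciliary score as a covariate, unadjusted p-values, and leaving out each mouse. Leaving out mice 4, 7 and 10 together was chosen after seeing the data.

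The 9 genes, the related lists and the marker lists were chosen with earlier results of these data known. The text names all 9, the 3 genes most like each by Pearson's r of log2 CPM (prior count 2; 1 of those for Acan is not reported here), every related gene called and otherwise up to 3 per list with the largest log2 fold change at P34, and Otx2. Cpamd8 of the ciliary list is not in the annotation used. Symbols and positions are from GENCODE M21 (GRCm38), and promoters are RefSeq windows.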

Additional observations from a re-analysis of the deposited data

Results flagged for a closer look

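The difference from P30 was not the same at all cKO ages for Vcan, by tests of the difference itself between ages. The log2 fold change of P34 against P32 was -2.37 (adjusted p = 0.000977 by edgeR), and that of P38 against P34 was 2.73 (adjusted p = 0.000786 by edgeR). Groups of 3 mice are too small for a test of single outlying mice, and none was made.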

How the results depend on the processing

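Vcan kept its direction in the 7 comparisons under every alternative run. With the ciliary score as a covariate, the number of the 9 genes called was 0 in place of 1 at P34 against P30, P34 against P32, P38 against P34, the mean of the 3 cKO ages and any difference. At an unadjusted p it was 1 at P32 (2.90% of all genes), 2 at P34 (with Hapln1; 6.27%), 3 at P34 against P32 (14.4%), 1 at P38 against P32 (11.9%) and 3 for any difference (Tnr and Hapln1 added; 17.2%). DESeq2 called 3 at P34 against P32 (7.55%), 1 (Tnr) at P38 against P32 (5.00%) and 2 for any difference (7.31% of all genes), and no filter on low counts gave 2 at P34 against P32 (1.93%). Leaving out 1 mouse gave 1 to 2 genes at P34 against P32, 0 to 1 at P38 against P32 and 0 to 1 for the mean of the cKO ages, and leaving out mice 4, 7 and 10 gave 0 there. Without P32 mouse 6, edgeR called 14.3% of all genes at P34 against P32 and 10.2% at P38 against P32, and without any other 1 mouse 14 to 47 genes and 0 to 3 genes. Over all genes, the 123 called at P34 against P30 were 298 with no filter, 369 by DESeq2, 229 with only the groups compared, 43 (without P34 mouse 8) to 213 (without P32 mouse 6) leaving out 1 mouse, with 49, 54, 59 and 64 without mice 9, 7, 2 and 3, and 33 without mice 4, 7 and 10. For any difference, the 64 genes called were 2, 4 and 11 without mice 9, 8 and 7, and 587 without P32 mouse 6. DESeq2 called 1361. At P38 against P34, the 37 genes called higher were 8, 12 and 15 without mice 8, 7 and 9, and 58 without P32 mouse 6. DESeq2 called 137 higher there. The causes were not tested.

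Small log2 fold changes of genes not called changed sign. Leaving out 1 mouse gave -0.56 to 0.10 for Acan at P34 and -0.26 to 0.40 at P38, -0.14 to 0.23 for Hapln1 at P32, -0.48 to 0.0701 for Hapln3 at P34 and -0.32 to 0.0705 at P38, -0.17 to 0.10 for Hapln4 at P32, -0.13 to 0.18 for Ncan at P32 and -0.19 to 0.0945 at P38, and -0.28 to 0.0301 for Ptprz1 at P32. With sex as a covariate they were 0.27 for Acan, 0.0766 for Ncan and 0.0535 for Hapln3 at P38, 0.0531 for Hapln1 at P32, and 0.0005 for Hapln3 and 0.0081 for Ptprz1 at P34. Without mice 4, 7 and 10 they were 0.0072 for Acan and 0.0686 for Ncan at P38, 0.13 for Hapln1, 0.0924 for Hapln4 and 0.0180 for Ptprz1 at P32, 0.0705 for Hapln3 at P34, and 0.0286 for Tnr at P38 against P34. Ncan at P38 was 0.0024 with DESeq2's size factors, 0.0027 with no filter and 0.0040 by DESeq2. With the ciliary score Tnr was -0.21 at P34 and 0.43 at P38 against P34.

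No paired analysis was possible because the groups share no mouse numbers. With 3 mice per group, the intervals given in the report limit what was detectable, most of all for Acan, which had 16 counts or fewer in every library.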

Other observations

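Impg1 and Impg2 encode the hyaluronan-binding proteoglycans of the matrix around PR outer segments, which is not part of perineuronal nets. Impg1 had 405 ± 53.4 CPM (SD, n = 3) in controls, 275 ± 116 CPM in P32 mice, 569 ± 27.5 CPM in P34 mice and 602 ± 128 CPM in P38 mice. Like that of Tnr, the mean of both genes was lowest at P32 and above P30 at P34 and P38. The summed level of 6 PR markers had the same course, with a median of 62617 CPM in controls, 57678 CPM in P32 mice, 75578 CPM in P34 mice and 77146 CPM in P38 mice, and its part in these values was not tested. The log2 fold change of P34 against P32 was 1.05 (SE 0.27) for Impg1 and 0.69 (SE 0.18) for Impg2 (adjusted p = 0.0948 for each by edgeR), and neither was called. DESeq2 called both (adjusted p = 0.00513 and 0.00790). Against P30, neither gene was called at any age by edgeR or DESeq2. The edgeR values at P32 were -0.56 (95% interval -1.15 to 0.02) and -0.38 (95% interval -0.77 to 0.02). Those at P38 had the other sign, with 0.57 (95% interval -0.01 to 1.16) for Impg1 and 0.40 (95% interval 0.01 to 0.80) for Impg2.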
